A study of Mus musculus with 7 samples.

Results

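Integrins, selectins and their partners are the surface proteins with which blood progenitors hold to the bone marrow and leave it. Their transcripts were followed across 7 mouse libraries, each of progenitors sorted from marrow and measured by targeted RNA sequencing with 1 short amplicon per gene. A list of 35 genes by name was looked up in the gene column of the count tables, and 34 of the 23930 genes there matched; Icam4 was not analysed here. In pMT-10 mice zinc drives an Il10 transgene through its metallothionein promoter, and C57BL/6 mice (BL/6) serve as controls. Zinc was given to both strains for 15 days. The source of common myeloid progenitors (CMPs), the ancestors of granulocytes, monocytes, red cells and megakaryocytes, was BL/6 mice for 2 libraries and pMT-10 mice for another 2. Cells without lineage markers that bear SCA-1, c-KIT, CD150 and CD48 (LSK CD150+CD48+) (2 libraries) and haematopoietic stem cells (HSC, 1 library) came from pMT-10 mice. The labels give neither the ages of the mice nor the animals behind each library, and the p-values therefore cover only the spread among these libraries, which may be technical. The promoter of the transgene answers to zinc in many cell types, so the source of IL-10 is not limited to the sorted cells.

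An integrin is a pair of an α and a β chain, and the pairing sets the ligand. The β2 integrins are confined to leukocytes and bind intercellular adhesion molecules (ICAMs), the β1 integrins bind fibronectin, laminin and VCAM-1, and β7 pairs with α4 to bind MAdCAM-1 of gut vessels. Selectins catch sialylated, fucosylated ligands such as PSGL-1 (Selplg) on rolling cells. In the marrow α4β1, α5β1, α6β1 and CD44 are known to hold stem and progenitor cells, and CD47 is a signal that keeps macrophages from eating the cell that bears it.

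Libraries held 7372430 to 13854314 counts. Levels are the counts of a gene scaled to a common library size (CPM) after scaling of library totals with TMM factors. Each gene is read at 1 amplicon with its own efficiency, so levels are compared between libraries and not between genes. The sort labels were set against markers: the 9 measured stem cell markers summed to 1177 CPM in HSC, 652 and 723 CPM in LSK CD150+CD48+ cells and 271 to 453 CPM in CMPs. Not all 9 followed the sum. In LSK CD150+CD48+ cells 5 were above both pMT-10 CMP libraries, 2 (Procr and Hlf) were below and 2 overlapped. In HSC 7 were above all other libraries, Cd48 was below them and Kit overlapped. The 12 myeloid progenitor markers summed to 881 to 1377 CPM in pMT-10 CMPs, 651 to 716 CPM in BL/6 CMPs, 346 to 364 CPM in LSK CD150+CD48+ cells and 429 CPM in HSC. Chip 1 of the sequencer carried pMT-10 CMPs with LSK CD150+CD48+ cells, and chip 2 carried BL/6 CMPs with HSC. The Y-linked gene Ddx3y had 0 counts in both BL/6 libraries and 197 to 1040 in the pMT-10 libraries, while Xist of the inactive X chromosome had 2 counts in LSK CD150+CD48+ replicate 2 and 959 to 11904 in the other 6. Strain, chip and Y-linked transcripts therefore coincide between the CMP groups, and their effects cannot be told apart. Xist also differed among pMT-10 populations: 11904 and 8140 counts for CMPs, 2431 and 2 for the LSK CD150+CD48+ pair, 959 for HSC. Ddx3y stood at 197 and 320 counts for these CMPs, 364 and 1040 for that pair, 370 for HSC. Whether the sex of the mice adds to differences between pMT-10 populations was not tested. Replicate spread was widest in pMT-10 CMPs (SD of the log2 difference over genes 0.823), next to 0.474 for the LSK CD150+CD48+ pair and 0.385 for the BL/6 pair.

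Of the 34 genes 4 were silent, with 0 counts in all 7 libraries: Itgad, Itga7, Itgb6 and Itgb8. Itgae, Sele and Vcam1 were near silent, with at most 3 counts in any library. A count of 0 allows up to 3 counts, which is 0.217 to 0.407 CPM of the library total. Another 3, Itga1, Itga8 and Itgb4, reached at most 9 counts and did not pass the filter on low counts. The remaining 24 were tested. Jam2 and Itga3 passed the filter through the HSC library alone and Itgax through BL/6 CMP replicate 2 alone, and Itgb5 through the 4 CMP libraries alone, so these had to differ in some measure. Of the 24 genes, 15 were called in at least 1 of 4 comparisons and 9 in none. The same count over all tested genes was not made, so these numbers are no result about adhesion genes as a set. A gene is called when its edgeR quasi-likelihood p, adjusted by Benjamini-Hochberg over all 11429 tested genes, is under 0.05. A fit with 1 library left out judges spread from fewer libraries. A call lost there at a similar fold change therefore shows no change of level, and log2 fold changes are given for such fits.

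**Figure D1:**
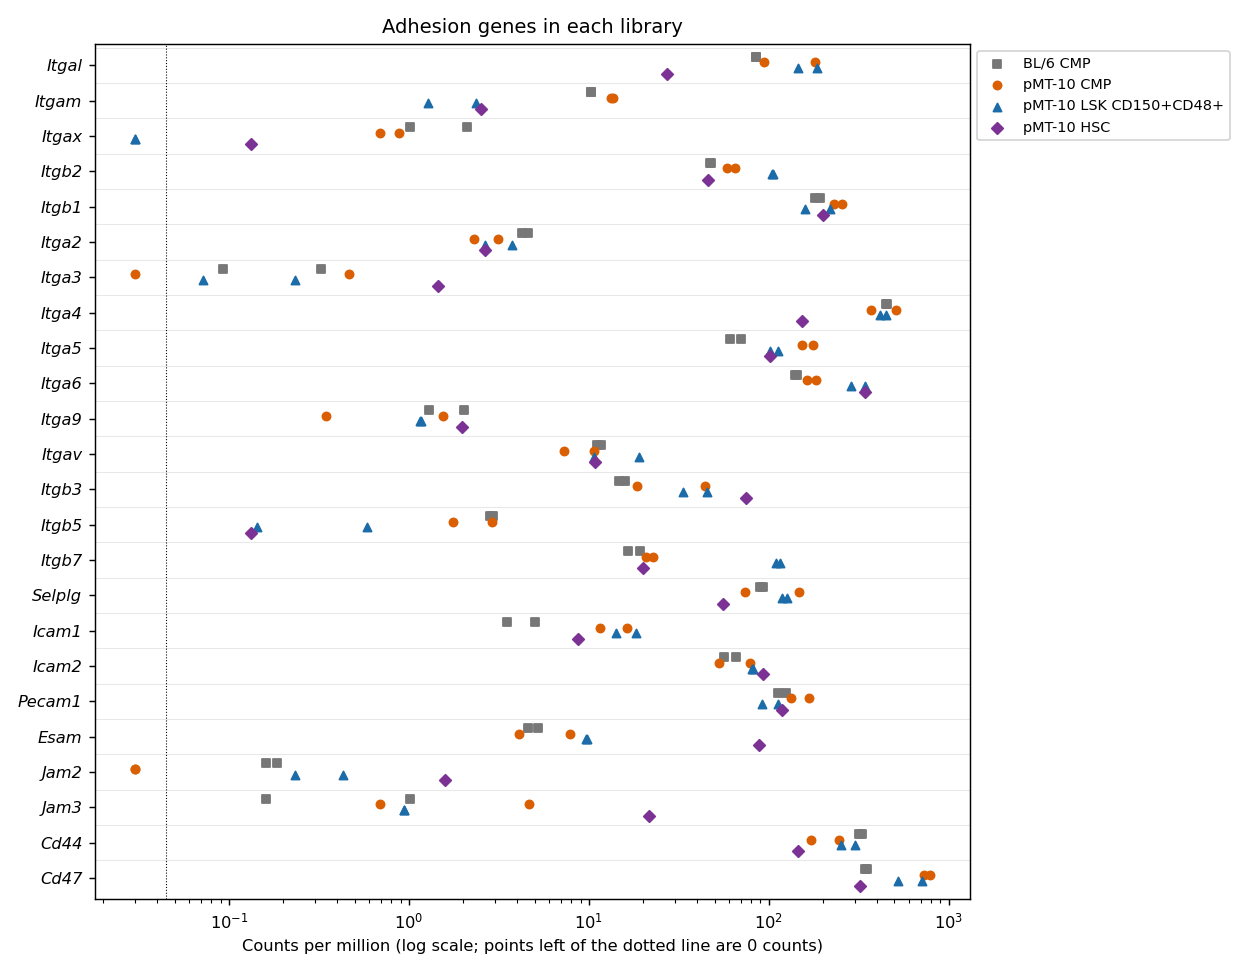
Level of each tested adhesion gene in CPM (log axis) in every library, with squares for BL/6 CMPs, circles for pMT-10 CMPs, triangles for LSK CD150+CD48+ cells and a diamond for HSC. Itgb7 stands apart in the 2 LSK CD150+CD48+ libraries, and Esam and Jam3 in the HSC library.

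Between pMT-10 and BL/6 CMPs, 3 of 24 genes were called and all 3 were higher in pMT-10: Itga5, Icam1 and Cd47. Over all tested genes 28.0% were called, 14.3% as higher and 13.7% as lower. The adhesion genes' share of 12.5% is below that background, with a median log2 fold change of 0.29 against 0.01 over all genes. In pMT-10 LSK CD150+CD48+ cells set against CMPs, both on chip 1, 6 of 24 were called. Itgb7, Itga6 and Itgb2 were higher and Itgam, Itgax and Itgb5 lower, beside 11.8% of all genes (5.92% higher and 5.92% lower). Itgb5 here, and Itgb5 and Jam2 in HSC against CMPs, were tested only through the group where they are high, so their calls are partly fixed by the filter. Between HSC and LSK CD150+CD48+ cells 8 of 24 were called, 2 higher and 6 lower, beside 18.8% (10.6% and 8.15%). Between HSC and pMT-10 CMPs 9 were called, 4 higher and 5 lower, beside 25.5% (13.8% and 11.7%). The HSC comparisons rest on 1 library, which is assumed to vary like the other groups, and cell population and chip coincide in both. The 2 HSC comparisons share that library. The 2 LSK CD150+CD48+ libraries enter both their comparison with CMPs and that with HSC, and the pMT-10 CMP libraries enter the comparisons with BL/6 CMPs, LSK CD150+CD48+ cells and HSC.

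**Figure D2:**
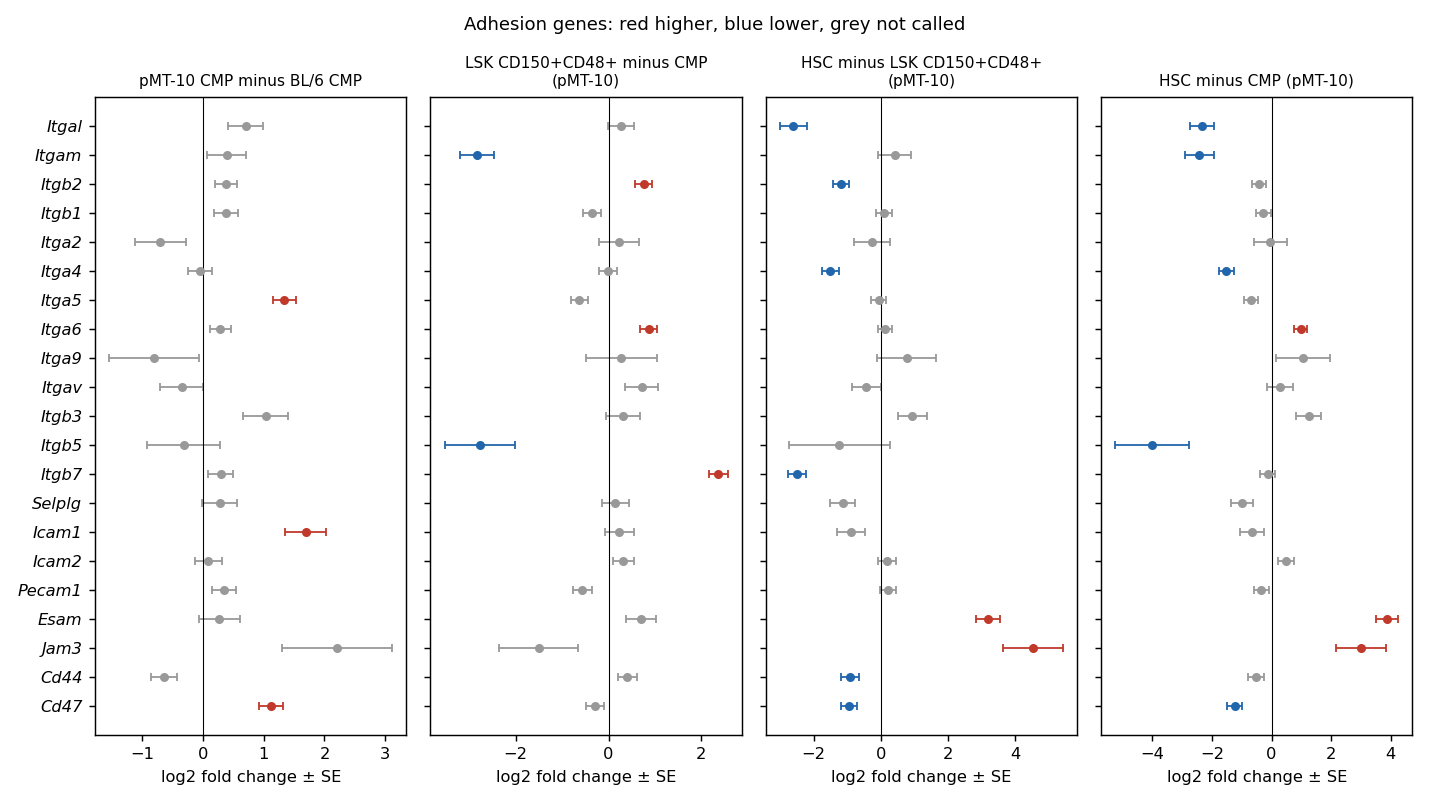
Log2 fold change ± SE of the tested adhesion genes in the 4 comparisons; Itga3, Itgax and Jam2, which have 0 counts in a library and wide errors, are left out. Points are red where the gene was called higher in the first group, blue where lower and grey where not called; in the CMP comparison Itga5, Icam1 and Cd47 are the red points.

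The leukocyte β2 integrins moved in different directions. Itgal, the αL chain of LFA-1, was at 84.6 and 84.8 CPM in BL/6 CMPs, 94.7 and 182 CPM in pMT-10 CMPs, 186 and 146 CPM in LSK CD150+CD48+ cells and 27.3 CPM in HSC. HSC lay below all other libraries, and pMT-10 CMP replicate 2 stood far above replicate 1. In HSC the log2 fold change (± SE) of Itgal was -2.60 ± 0.40 against LSK CD150+CD48+ cells (adjusted p = 0.00437) and -2.34 ± 0.40 against pMT-10 CMPs (adjusted p = 0.0046). Without LSK CD150+CD48+ replicate 1 the former call was lost, at -2.42. In the CMP comparison Itgal was at 0.71 ± 0.29 (adjusted p = 0.0931) and was called without pMT-10 CMP replicate 1, at 1.10.

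Itgb2, the shared β2 chain, was at 47.4 and 47.5 CPM in BL/6 CMPs, 64.9 and 58.9 CPM in pMT-10 CMPs, 104 and 105 CPM in LSK CD150+CD48+ cells and 46.1 CPM in HSC. The LSK CD150+CD48+ pair was above every other library. It rose by 0.76 ± 0.18 against pMT-10 CMPs (adjusted p = 0.0286) and was lower in HSC than in LSK CD150+CD48+ cells with a log2 fold change of -1.18 ± 0.23 (adjusted p = 0.0104). Both calls were lost when either LSK CD150+CD48+ library was left out, at similar fold changes. These were 0.77 and 0.75 against CMPs, and -1.19 and -1.18 for HSC against LSK CD150+CD48+ cells.

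Itgam, the αM chain of Mac-1 (CD11b) on granulocytes and monocytes, was at 10.2 and 10.3 CPM in BL/6 CMPs, with the pMT-10 CMP libraries at 13.4 and 13.7 CPM. It was at 1.29 and 2.37 CPM in LSK CD150+CD48+ cells and 2.51 CPM in HSC, so the CMP libraries lay above the more primitive ones without overlap. It fell with a log2 fold change of -2.83 ± 0.37 (adjusted p = 0.00302) from pMT-10 CMPs to LSK CD150+CD48+ cells and -2.42 ± 0.48 (adjusted p = 0.00848) to HSC. Without LSK CD150+CD48+ replicate 1 the former call was lost, at -2.50. CD11b is commonly among the lineage antibodies of an LSK sort, although the labels do not list them. Of the 12 myeloid progenitor markers, whose sums are given above, 10 were lower in both LSK CD150+CD48+ libraries than in both pMT-10 CMP libraries and 1, Csf2rb, was higher. In HSC 11 were lower than in both pMT-10 CMP libraries and Kit was higher. Their part and that of the gate were not tested. In bulk samples fewer cells of a type and less RNA per cell cannot be told apart. Itgax, the αX chain (CD11c) of dendritic cells, had no count in the LSK CD150+CD48+ pair, 0.883 and 0.695 CPM in pMT-10 CMPs, 1.02 and 2.10 CPM in BL/6 CMPs and 1 count in HSC. It was called lower in LSK CD150+CD48+ cells than in pMT-10 CMPs (adjusted p = 0.0476). This call was lost without either LSK CD150+CD48+ library. The pMT-10 CMP mean was 2.79-fold over the floor of 3 counts per library. Such folds over the floor take the mean of the higher group and make no allowance for its own error.

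**Figure D3:**
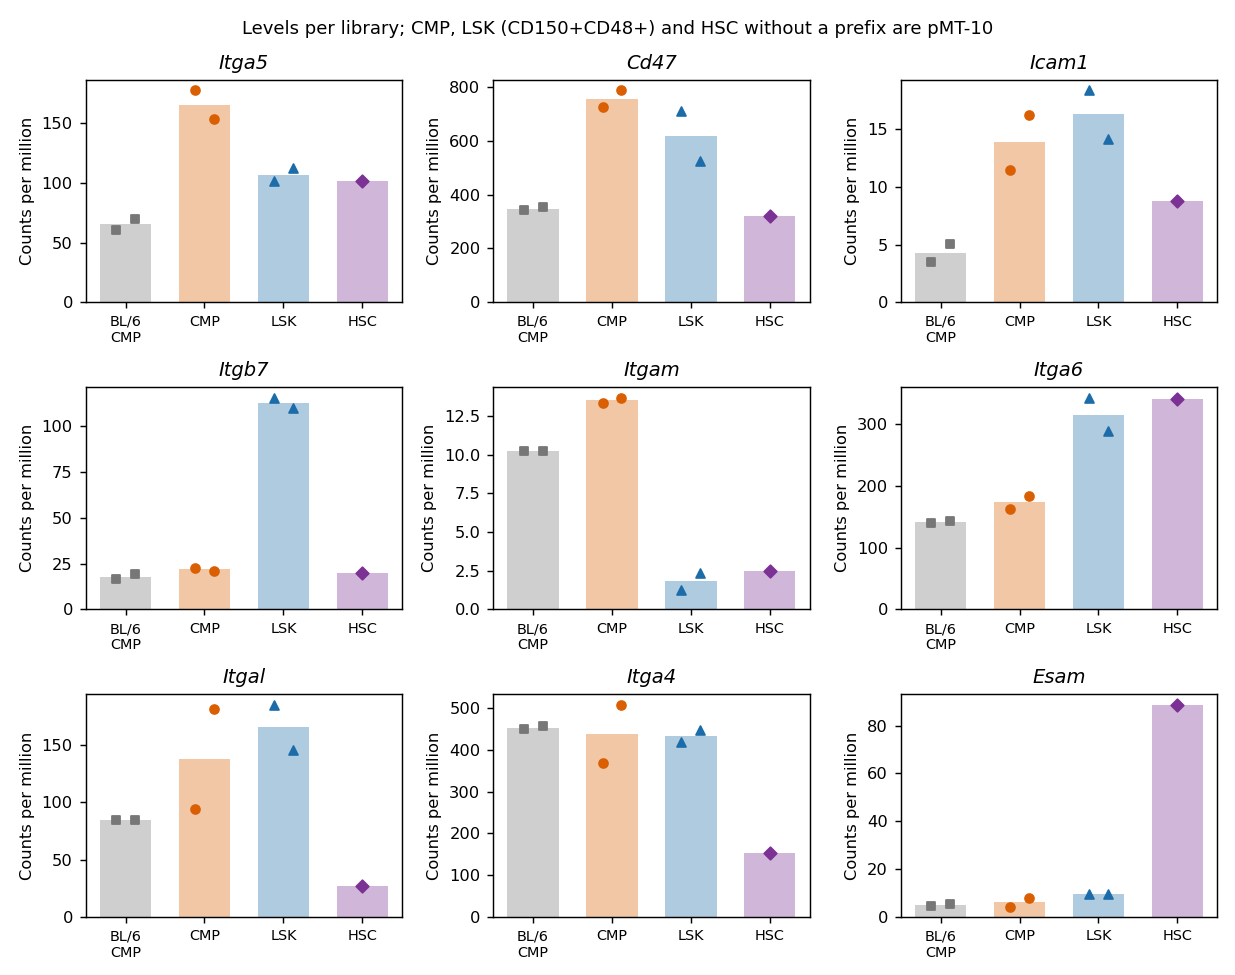
Level in CPM (linear axes from 0) of 9 adhesion genes, with bars for group means and points for libraries (2 per group, 1 for HSC). Itga5, Cd47 and Icam1 are higher in pMT-10 than in BL/6 CMPs, Itgb7 is highest in LSK CD150+CD48+ cells, and Itgal and Itga4 are low and Esam high in HSC.

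Among the β1 integrins the shared chain stayed within a narrow range while some α chains differed. Itgb1 ran from 159 CPM (LSK CD150+CD48+ replicate 1) to 256 CPM (pMT-10 CMP replicate 1), and none of the 4 comparisons called it (adjusted p from 0.171 to 0.831). Itga5, the fibronectin receptor chain α5 (chromosome 15, 103344286 to 103366763), was at 60.7 and 69.8 CPM in BL/6 CMPs, and the pMT-10 CMP libraries held 177 and 153 CPM. It was at 101 and 112 CPM in LSK CD150+CD48+ cells and 102 CPM in HSC, between the CMP groups. In pMT-10 CMPs it rose by 1.34 ± 0.19 on the log2 scale against BL/6 (adjusted p = 0.00234), and the call held in each fit with 1 library left out. In LSK CD150+CD48+ cells it was at -0.63 ± 0.18 against CMPs (adjusted p = 0.0552). That passed with library totals alone (adjusted p = 0.0462), with DESeq2 (0.0307) and with no filter (0.0391). The HSC library was similar, at -0.70 ± 0.23 against pMT-10 CMPs (adjusted p = 0.0533). This passed with DESeq2 (adjusted p = 0.0387), with a minimum count of 50 (0.0460) and with no filter (0.0463).

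Itga4, the α4 chain that binds VCAM-1 with β1 and MAdCAM-1 with β7, was at 449.6 and 457 CPM in BL/6 CMPs, 369 and 508 CPM in pMT-10 CMPs and 418 and 448 CPM in LSK CD150+CD48+ cells. The HSC library held 153 CPM, below the other 6. In HSC it was lower 2.83-fold against LSK CD150+CD48+ cells (adjusted p = 0.00628) and by a log2 fold change of -1.52 ± 0.26 against pMT-10 CMPs (adjusted p = 0.00444). The first call was lost without either LSK CD150+CD48+ library (adjusted p = 0.0575 and 0.0556).

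Itga6, the laminin receptor chain α6 (CD49f) of stem cells, was at 140.1 and 144 CPM in BL/6 CMPs, 163 and 184 CPM in pMT-10 CMPs, 343 and 288 CPM in LSK CD150+CD48+ cells and 341 CPM in HSC. Both primitive populations lay above all CMPs. It rose by 0.86 ± 0.18 (adjusted p = 0.0177) from pMT-10 CMPs to LSK CD150+CD48+ cells and by 0.98 ± 0.21 (adjusted p = 0.0111) to HSC. The first call was lost without either LSK CD150+CD48+ library (0.73 and 0.98). The collagen receptor chain gene Itga2 ran from 2.32 to 4.61 CPM and Itga9 from 0.348 to 2.02 CPM, and neither was called in any of the 4 comparisons. Itga3, a laminin receptor chain, had 11 counts in HSC (1.46 CPM) and 0 to 4 counts elsewhere, and was not called either (adjusted p = 0.138 against LSK CD150+CD48+ cells).

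Of the αV partners, Itgb3, which also pairs with αIIb on megakaryocytes and platelets, was at 14.8 and 15.9 CPM in BL/6 CMPs, and the pMT-10 CMP libraries held 18.6 and 44.4 CPM. It was at 45.1 and 33.4 CPM in LSK CD150+CD48+ cells and 74.9 CPM in HSC. HSC was the highest library, and the pMT-10 CMP pair was spread over more than the distance to the BL/6 pair. Itgb3 was at 1.04 ± 0.37 in the CMP comparison (adjusted p = 0.0631) and 1.25 ± 0.42 in HSC against pMT-10 CMPs (adjusted p = 0.0576). Both passed with DESeq2 (adjusted p = 0.033 and 0.0381). They also passed when pMT-10 CMP replicate 1 was left out (1.53 and 0.75). Without pMT-10 CMP replicate 2 the value in the CMP comparison fell to 0.28 and was not called. The 8 megakaryocyte and platelet markers, of which Gp6 is at 0 counts in all but 1 library, moved in part alongside. In pMT-10 CMPs 4 of them (Pf4, Itga2b, Ppbp and Selp) were above both BL/6 libraries and 2 (Gp1ba and Vwf) below, and in HSC 5 were above all other libraries. They summed to 311 to 324 CPM in BL/6 CMPs, 589 and 872 CPM in pMT-10 CMPs, 612 to 693 CPM in LSK CD150+CD48+ cells and 2226 CPM in HSC, and their part in the levels of Itgb3 was not tested. Itgav, the αV chain, ran from 7.28 to 18.9 CPM and was not called. Itgb5, another αV partner, was at 2.95 and 2.83 CPM in BL/6 CMPs, 1.77 and 2.90 CPM in pMT-10 CMPs and 0.584 and 0.144 CPM in LSK CD150+CD48+ cells, with 1 count in HSC. It was lower in LSK CD150+CD48+ cells than in CMPs with a log2 fold change of -2.78 ± 0.76 (adjusted p = 0.0448). This call was lost without either LSK CD150+CD48+ library (-3.91 and -1.97). The ratio of pMT-10 CMPs to HSC was 17.5 with a 95% counting interval of 2.97 to 708 (adjusted p = 0.0419; 0.0678 with DESeq2).

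Itgb7, the β7 chain (chromosome 15, 102215995 to 102231944), marked LSK CD150+CD48+ cells. It was at 115 and 109.6 CPM there, 22.8 and 20.9 CPM in pMT-10 CMPs, 16.4 and 19.1 CPM in BL/6 CMPs and 19.99 CPM in HSC. The lowest LSK CD150+CD48+ library was far above the highest of the other 5, which lay close together on both chips. It rose by 2.36 ± 0.21 against pMT-10 CMPs (adjusted p = 0.000601) and was lower in HSC than in LSK CD150+CD48+ cells with a log2 fold change of -2.49 ± 0.27 (adjusted p = 0.00117). Both calls held in each fit with 1 library left out. Against pMT-10 CMPs, HSC was at -0.13 ± 0.25 (adjusted p = 0.737). Its α partner Itga4 was at -0.02 ± 0.19 between LSK CD150+CD48+ cells and CMPs (adjusted p = 0.963), and the other β7 partner, Itgae, had at most 2 counts. β7 is also carried by lymphocytes. The 8 T and NK cell markers summed to 265 to 347 CPM in LSK CD150+CD48+ cells, 161 to 224 CPM in pMT-10 CMPs, 73.9 to 78.5 CPM in BL/6 CMPs and 104 CPM in HSC, nearly all of it Nkg7, and Cd3d and Ncr1 had 0 counts in all 7 libraries. The 4 B cell markers summed to 15.8 to 17.0 CPM in LSK CD150+CD48+ cells, 11.3 to 19.9 CPM in pMT-10 CMPs, 15.6 to 17.2 CPM in BL/6 CMPs and 52.5 CPM in HSC. Ms4a1 had 0 counts in all but LSK CD150+CD48+ replicate 1.

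The selectin ligand gene Selplg was at 89.2 and 92.5 CPM in BL/6 CMPs, 73.4 and 148 CPM in pMT-10 CMPs, 126 and 118 CPM in LSK CD150+CD48+ cells and 55.7 CPM in HSC. HSC was the lowest library and the pMT-10 CMP libraries fell on both sides of the BL/6 pair. No comparison called it; against HSC the values were -1.13 ± 0.37 for LSK CD150+CD48+ cells (adjusted p = 0.0623) and -0.99 ± 0.37 for pMT-10 CMPs (adjusted p = 0.0789), both as HSC minus the other group. Both passed with DESeq2 (adjusted p = 0.0256 and 0.0489). The endothelial selectin Sele had 1 count, in pMT-10 CMP replicate 2.

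In the immunoglobulin superfamily Icam1 (chromosome 9, 21015985 to 21028817) encodes an ICAM that β2 integrins bind and that inflammatory cytokines are known to induce. It was at 3.51 and 5.01 CPM in BL/6 CMPs. Levels reached 11.5 and 16.2 CPM for pMT-10 CMPs, 18.4 and 14.2 CPM in LSK CD150+CD48+ cells and 8.74 CPM in HSC. All 5 pMT-10 libraries lay above both BL/6 libraries. In pMT-10 CMPs Icam1 rose by 1.69 ± 0.33, which is 3.23-fold (adjusted p = 0.00718). Without BL/6 CMP replicate 1 the call was lost, at 1.46. Differences within pMT-10 were not called (adjusted p from 0.154 to 0.658). Icam2, of endothelium and leukocytes, ran from 52.7 CPM (pMT-10 CMP replicate 1) to 92.4 CPM (HSC) and Pecam1, of endothelium, platelets and leukocytes, from 91.6 CPM (LSK CD150+CD48+ replicate 2) to 168 CPM (pMT-10 CMP replicate 2). Neither was called in any of the 4 comparisons. Vcam1, the α4β1 ligand of stroma and macrophages, had at most 3 counts, and the 8 macrophage markers, Vcam1 included, summed to between 0.221 and 1.72 CPM per library.

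Promoters are shown for the 3 genes called in the CMP comparison, to print the letters beside their values; as given above, 3 of 24 is no more than the share of all genes called higher. They are the 250 bases before the RefSeq start on GRCm38.p6, 5′ to 3′ on the strand of the gene. Icam1 lies at chr9:21015690-21015939 (forward strand), Cd47 at chr16:49855404-49855653 (forward strand) and Itga5 at chr15:103366792-103367041 (reverse strand). Capitals mark matches to 4 motifs searched on both strands, of which Icam1 held 1. The RefSeq start of Cd47 lies inside the longer GENCODE gene.
Icam1: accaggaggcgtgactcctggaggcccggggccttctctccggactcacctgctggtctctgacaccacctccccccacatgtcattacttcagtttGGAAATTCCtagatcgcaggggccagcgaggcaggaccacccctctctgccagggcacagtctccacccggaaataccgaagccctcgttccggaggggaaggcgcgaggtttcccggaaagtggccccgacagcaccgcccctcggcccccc
Cd47: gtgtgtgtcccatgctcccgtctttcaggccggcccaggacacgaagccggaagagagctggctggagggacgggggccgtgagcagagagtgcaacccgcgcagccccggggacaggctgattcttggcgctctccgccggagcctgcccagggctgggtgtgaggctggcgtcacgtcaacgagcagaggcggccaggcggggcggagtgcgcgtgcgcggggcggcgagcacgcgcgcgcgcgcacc
Itga5: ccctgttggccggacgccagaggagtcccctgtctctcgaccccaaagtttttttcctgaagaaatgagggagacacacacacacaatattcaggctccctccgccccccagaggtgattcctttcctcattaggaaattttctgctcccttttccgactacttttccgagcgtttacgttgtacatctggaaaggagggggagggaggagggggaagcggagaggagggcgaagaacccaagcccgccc
The capital run in Icam1, GGAAATTCC, is a match on the reverse strand to the NF-κB-like letters GGANTTTCC, 153 to 145 bases before the start. An ISRE-like run, the PU.1-like letters GAGGAAG and the erythroid motif letters AGATAA, bound by GATA1 and its kin, were not found in Icam1, and none of the 4 motifs was found in the windows of Cd47 and Itga5. Of all 32851 promoters of this length 1.07% held the NF-κB-like letters, 2.98% the ISRE-like run, 10.6% the PU.1-like letters and 9.99% the GATA letters. A match is a description of the letters and not a site in use. RefSeq promoters matched 20 of the 35 listed genes, 9 of them among the 15 called.

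Among junction proteins Esam and Jam3 were highest in the HSC library. Esam, an adhesion molecule of endothelial tight junctions, platelets and stem cells (chromosome 9, 37528078 to 37538319), was at 88.7 CPM in HSC. It was at 4.62 and 5.25 CPM in BL/6 CMPs, 4.08 and 7.88 CPM in pMT-10 CMPs and 9.70 and 9.72 CPM in LSK CD150+CD48+ cells. Its log2 fold change in HSC was 3.19 ± 0.36 against the LSK CD150+CD48+ pair (adjusted p = 0.00122) and 3.89 ± 0.37 against pMT-10 CMPs (adjusted p = 0.00041). Both calls held in each fit with 1 library left out. Jam3, a junctional molecule also found on stem cells and platelets, was at 21.7 CPM in HSC. It was at 1.02 and 0.162 CPM in BL/6 CMPs, 4.63 and 0.695 CPM in pMT-10 CMPs and 0.935 and 0.936 CPM in LSK CD150+CD48+ cells. Its log2 fold change in HSC was 4.52 ± 0.89 against the LSK CD150+CD48+ pair (adjusted p = 0.0108) and 3.01 ± 0.83 against pMT-10 CMPs (adjusted p = 0.0287). The former was lost without either LSK CD150+CD48+ library, though it stayed at 4.52 in both fits. The latter stayed called, at 4.94 when pMT-10 CMP replicate 1 was left out and 2.22 when replicate 2 was. Jam2, its relative and binding partner, had 12 counts in HSC (1.59 CPM), 0 in both pMT-10 CMP libraries and 2 to 6 in the others. It was called higher in HSC than in CMPs (adjusted p = 0.0268), with the limit of the filter given above. Its HSC level was 4.68-fold over the floor of the CMPs, with no allowance for error in the 12 counts.

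Endothelial cells also carry these 3 junction genes. The 10 endothelial and stromal markers summed to 156 CPM in HSC, 90.3 and 120 CPM in pMT-10 CMPs, 109.6 to 111 CPM in LSK CD150+CD48+ cells and 142 to 145 CPM in BL/6 CMPs. In HSC Cdh5, the endothelial cadherin, Cxcl12, Lepr and Col1a1 had 0 counts, and they were at 0 or at most 0.462 CPM elsewhere. Kdr, Tek, Tie1 and Emcn were above all other libraries, Tie1 at 85.1 CPM against 9.49 to 18.2 CPM and Emcn at 17.5 CPM against 0.504 to 2.50 CPM. Pdgfrb (9.53 CPM against 39.9 to 66.2) and Plvap (9.26 CPM against 18.9 to 58.9) were below them. Tie1 and Emcn are also known from stem cells. Of the 9 stem cell markers 7 were above all other libraries in HSC, while Cd48 was below them and Kit overlapped. Among the 7, Mecom and Procr were at 47.6 and 38.5 CPM in HSC and at most 4.09 and 2.20 CPM elsewhere. The part of either set of markers in the levels of Esam, Jam2 and Jam3 was not tested.

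Cd44, the hyaluronan receptor, was at 317 and 329 CPM in BL/6 CMPs, 246 and 171 CPM in pMT-10 CMPs, 251 and 300.4 CPM in LSK CD150+CD48+ cells and 145 CPM in HSC. HSC was the lowest and the BL/6 pair the highest. It was lower in HSC than in LSK CD150+CD48+ cells with a log2 fold change of -0.93 ± 0.27 (adjusted p = 0.0411). This call was lost without either LSK CD150+CD48+ library (-1.05 and -0.79). In the CMP comparison it was at -0.63 ± 0.21 (adjusted p = 0.0503). It was called with DESeq2 (adjusted p = 0.0377), with no filter (adjusted p = 0.0129) and without pMT-10 CMP replicate 1, at -0.92.

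Cd47 (chromosome 16, 49800533 to 49915010) was at 342 and 354 CPM in BL/6 CMPs, 726 and 787 CPM in pMT-10 CMPs, 711 and 524 CPM in LSK CD150+CD48+ cells and 320 CPM in HSC. The 4 libraries of chip 1 lay above the 3 of chip 2, whatever the strain or cell. In pMT-10 CMPs it rose by 1.12 ± 0.19, which is 2.18-fold (adjusted p = 0.00454). The call was lost without BL/6 CMP replicate 1 or 2, at 1.09 and 1.16. In HSC its log2 fold change was -0.95 ± 0.25 against the LSK CD150+CD48+ pair (adjusted p = 0.0296) and -1.24 ± 0.25 against CMPs (adjusted p = 0.00885). The former was lost without either LSK CD150+CD48+ library (-0.71 and -1.15). Of the 24 genes 5 had all chip 1 libraries above all chip 2 libraries (Cd47, Icam1, Itgal, Itgb2 and Itgb7), a share of 20.8% beside 10.2% of all tested genes, and 0 the reverse, beside 11.5%. Group and chip cannot be told apart in these genes' CMP and HSC comparisons. The HSC library lay above the other 6 in 6 of the 24 genes and below them in 7, beside 25% and 21.3% of all tested genes.

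Wider lists of the adhesion machinery moved in both directions in the CMP comparison, with 20.7%, 33.3%, 18.8% and 23.1% of their tested genes called in the order below, beside 28.0% of all genes. Of 29 tested genes of integrin activation and linkage to actin 3 rose and 3 fell in pMT-10 against BL/6 CMPs. Rapgef3, an exchange factor for the integrin-activating GTPase RAP1, rose by 1.94 ± 0.45, while the kinases Lyn (-1.67 ± 0.43) and Ptk2, the focal adhesion kinase (-1.22 ± 0.34), fell. Each of these 3 calls was lost without either BL/6 library, and Lyn was at -2.44 without pMT-10 CMP replicate 2. Of 18 genes of selectins and of the making of their ligands 3 rose and 3 fell. P-selectin, Selp, rose from 12.3 ± 1.89 to 48.1 ± 4.25 CPM (SD, n = 2 each; log2 fold change 1.96 ± 0.25), Podxl, a sialomucin, rose by 2.84 ± 0.48 (12.7 ± 8.27 CPM in pMT-10 CMPs; 1.95 without pMT-10 CMP replicate 1), and Glg1, an E-selectin ligand, fell by 1.46 on the log2 scale. Of 16 other receptors and junction genes 2 rose and 1 fell, among them Itga2b, the αIIb chain, with 189 ± 4.57 and 462 ± 124 CPM, E-cadherin, Cdh1, with 0.214 ± 0.0408 and 3.13 ± 2.29 CPM, and Nectin2 (-1.65 ± 0.33). Without BL/6 CMP replicate 1 these 3 were lost (1.26, 3.62 and -1.63), and without replicate 2 Cdh1 and Nectin2 (4.01 and -1.66). Leaving out a pMT-10 CMP library moved the log2 fold change of Cdh1 to 2.74 (replicate 1) or 4.39 (replicate 2). Of 26 partners and ligands 3 rose and 3 fell. The 3 that fell were the metalloproteases Mmp14 (-1.36 ± 0.20) and Adam17 (-1.38 ± 0.29), which shed surface proteins, and radixin, Rdx (-1.14 ± 0.18). Radixin ties CD44 to actin. Without either BL/6 library the call of Adam17 was lost (-1.29 and -1.47).

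In LSK CD150+CD48+ cells against pMT-10 CMPs the same lists had 3 higher and 1 lower, 3 and 5, 2 and 1, and 4 and 1 genes, which is 13.8%, 44.4%, 18.8% and 19.2% of those tested beside 11.8% of all genes. Cd34, a sialomucin, fell with a log2 fold change of -2.67 ± 0.29 and Selp with a log2 fold change of -1.91 ± 0.25. The tetraspanin Cd53 fell from 25.3 ± 6.23 to 0.940 ± 0.820 CPM and Cd9, another tetraspanin, rose by 0.78 ± 0.17, as did Tgfb1, which αV integrins release from its latent form (0.81 ± 0.19). Zyx (zyxin, of focal adhesions) rose by 1.61 ± 0.27 and Ptk2b (the kinase PYK2) by 1.53 ± 0.35 (2.35 without pMT-10 CMP replicate 1), while Rapgef3 fell with a log2 fold change of -2.78 ± 0.48. Nectin2 rose by 1.88 ± 0.33. Cdh1 had no count in the LSK CD150+CD48+ pair and was called lower there. Its pMT-10 CMP mean, 3.13 ± 2.29 CPM, was 11.0-fold over the floor, a ratio that leaves out this spread. With 0.214 ± 0.0408 CPM in BL/6 CMPs and no count in HSC it was tested only through the pMT-10 CMPs, where it is high, so this call and that against BL/6 are partly fixed by the filter. Bcam, a laminin receptor, had 0 counts in CMPs and was at least 2.66-fold higher (adjusted p = 0.0486; 0.0501 with library totals alone). Without either LSK CD150+CD48+ library all of these calls but those of Cd34 and Cd53 were lost. Cd34 was lost without replicate 1, at -2.45. Cd53 was lost without replicate 2, and its log2 fold change ran from -6.09 to -4.04 with 1 library left out.

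**Figure D4:**
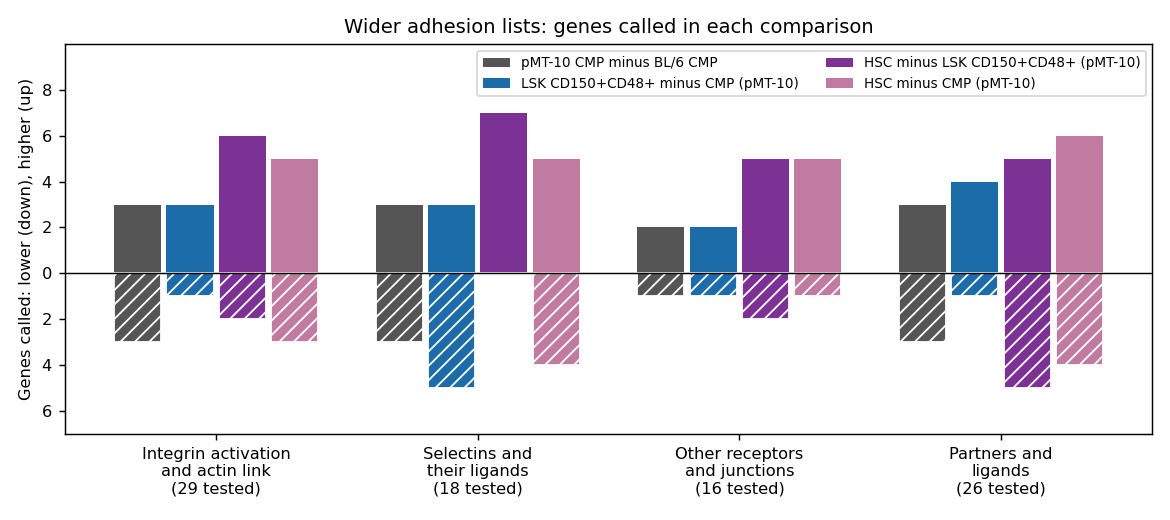
Number of genes called higher (bars up) and lower (hatched bars down) in each of 4 wider adhesion lists, one colour per comparison, with the number tested under each list. In HSC against LSK CD150+CD48+ cells the selectin list had 7 genes higher and 0 lower.

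In HSC against LSK CD150+CD48+ cells these lists had 6 higher and 2 lower, 7 and 0, 5 and 2, and 5 and 5 genes, of 29, 18, 16 and 26 tested. That is 27.6%, 38.9%, 43.8% and 38.5%, beside 18.8% of all genes. Against pMT-10 CMPs they had 5 and 3, 5 and 4, 5 and 1, and 6 and 4, which is 27.6%, 50%, 37.5% and 38.5% beside 25.5%. In the list of other receptors, Ncam1 was called in HSC against LSK CD150+CD48+ cells (2.51 CPM against no count). It passed the filter through HSC alone, with means of 0.563 and 0.467 CPM in pMT-10 and BL/6 CMPs. This call, and that of Cdh1 in HSC against CMPs, are partly fixed by the filter. The limit was not worked out for every list gene. The selectin list had a median log2 fold change of 0.59 against LSK CD150+CD48+ cells beside 0.03 over all genes, and the genes called in it included Selp, Emcn, Tpst2, Cd34, Podxl and Gcnt1. Selp, Emcn, Cd34 and Podxl are also carried by endothelial cells or platelets, whose marker sums are given above.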

How the data were processed

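Per the labels' protocols, an Ion AmpliSeq mouse transcriptome kit turned the RNA of sorted cells into libraries. The authors deposited unnormalized counts, with a table for each chip and a row for each gene's amplicon. Processing notes of the submitters name mm10; which aligner and counting program were run is not given in the sources used here. Reads carry no molecular identifiers, and floors and intervals speak of counting error alone.

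Columns were matched to samples by table and barcode. Counts were fitted in R 4.3.3 with edgeR 4.0.16: filterByExpr (minimum count 10) left 11429 of 23930 genes, libraries were scaled by TMM, and all 7 entered 1 fit with a mean per group and 3 residual degrees of freedom. Contrasts were tested with the robust quasi-likelihood F-test, and every adjusted p of a single gene is from it unless another tool is named. Standard errors derive from the same F. The scripts were tested on simulated counts. Replicate pairs differed by more than sampling noise (chi-square per degree of freedom 7.07 to 48.3). The genes and lists were chosen with earlier results of these data known. All list genes are counted; values in every library are given for genes called in at least 1 comparison, and up to 3 called genes with the smallest p are named per wider list in the first 2 comparisons, except 1 that is not reported here. Selplg and Itgb3, not called, were given full values after these were seen. Gene positions are from GENCODE M21 (GRCm38) and promoters from RefSeq. DESeq2 1.42.0, other scalings and filters, left-out libraries and a replicate block were the alternatives.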

Additional observations from a re-analysis of the deposited data

How the results depend on the processing

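With 1 setting changed at a time, 25 fold changes turned sign, of which 0 were called in either fit. Besides Itga4 with library totals alone in the CMP comparison (9.62e-05), all came from leaving out 1 library, where the lone library is assumed to vary like the other groups. Over those fits the log2 fold changes of pMT-10 against BL/6 CMPs ran from -0.30 to 0.17 for Itga4, -0.71 to 0.0040 for Itgb5, -4.23 to 1.20 for Itga3, -0.31 to 0.70 for Selplg, -0.22 to 0.35 for Icam2 and -0.27 to 0.67 for Esam. Those of LSK CD150+CD48+ cells against CMPs ran from -0.13 to 0.80 for Itgal, -0.19 to 1.06 for Itgb3, -0.27 to 0.73 for Selplg, -0.0062 to 0.49 for Icam1, -2.30 to 0.42 for Jam3, -1.69 to 3.61 for Itga3, -0.23 to 0.23 for Itga4, -0.41 to 1.70 for Itga9 and -0.030 to 0.46 for Itga2. Those of HSC against LSK CD150+CD48+ cells ran from -0.13 to 0.34 for Itgb1, -0.80 to 0.027 for Itgav, -0.14 to 0.0055 for Itga5 and -0.0091 to 0.24 for Itga6, and that of Itga2 in HSC against CMPs from -0.24 to 0.19. The count of adhesion genes called was 3 in the CMP comparison, 7 with no filter on low counts, 5 with DESeq2 and 1 to 8 with 1 library left out. It was 6 in LSK CD150+CD48+ cells against CMPs, 2 with only these groups fitted and 1 to 13 with 1 library left out. It was 8 in HSC against LSK CD150+CD48+ cells and 2 to 3 with 1 library left out, and 9 in HSC against CMPs and 12 to 14. The other settings kept each count within 1.5 times. The share of all genes called in each of these fits is not given here. The changes in these counts are therefore no result about adhesion genes as a set. Same-numbered replicates did not deviate together (correlations from -0.076 to -0.019), so the number is not taken as a pairing; with a replicate block 3 and 4 genes were called in the first 2 comparisons, and Itgax (adjusted p = 0.059) and Itgb5 (0.0587) were the calls lost. Low counts limit Itgax, Itgb5, Jam2 and Itga3.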
